A study of Caenorhabditis elegans with 4 samples.

Results

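The genes described here are the nuclear receptor genes of Caenorhabditis elegans that carry an nhr symbol. They were chosen by name from a RefSeq gene table: all protein-coding genes called nhr- plus a number, without nhr-23 and nhr-25. This gave 267 genes among 19971 protein-coding genes on the 6 chromosomes, and the remaining 19704 genes are the ones they are set against. The rule itself uses no binding value, but the family and the lists of its members used below were picked with earlier results of these data known.

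The study mapped where the transcription factor UNC-62 sits on the genome in embryos, by chromatin immunoprecipitation and sequencing (ChIP-seq). There were 2 UNC-62 ChIP samples and 2 Input samples, all from embryos of the hermaphrodite strain OP600, whose worms were kept at 20 °C and fixed with 2% formaldehyde. ChIP and Input alike carry the mutation unc119(ed3) and the transgene wgIs600, which was introduced by bombardment and encodes UNC-62 joined to TY1, EGFP and FLAG tags together with unc119. The labels list no change in the animals' own unc-62, so untagged protein, which the anti-GFP antibody does not take, may be present beside the tagged one. No list from a strain without the tag was used. The data are 3 lists of binding regions on the WS220 genome build: 7964 regions in a list for the whole series, 7782 in the list of ChIP replicate 1 and 3138 in that of ChIP replicate 2. A region is given by its coordinates and a value read as a q-value; the smaller it is, the stronger the region is called here. Depth is unknown, since no list gives read counts, and the Input samples enter through no list of their own. The labels do not say if the replicates are separate cultures.

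Nuclear receptors are transcription factors with a zinc-finger DNA-binding domain and a domain that in many members binds a small hydrophobic ligand such as a sterol or fatty acid. Nematodes have a greatly enlarged family, most of it derived from an ancestor like the vertebrate receptor HNF4, beside a small set with counterparts in insects and vertebrates. UNC-62 is the worm member of the MEIS/Homothorax class of homeodomain proteins, which act with PBC homeodomain proteins and Hox proteins in patterning the embryo.

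The question was how often UNC-62 regions lie at nuclear receptor genes, and at which. A region was assigned by its midpoint. The gene table gives no strand, so the 5′ end of a gene is not known from it. The share of genes with a region from 2 kb upstream to the 3′ end was therefore enclosed between a lower and an upper bound. The upper bound takes regions within the gene or up to 2 kb to either side of it, and "at a gene" has this meaning below. The lower bound counts genes that meet the window whichever strand they are on, because they hold a region inside or on both sides. The table is on the WBcel235 build, which the selection rule takes to lie within about 100 bp of WS220, and every distance given here carries that uncertainty.

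As a family, nhr genes held UNC-62 regions about as often as other genes when all regions of the series list were counted, and less often when weak regions were left out. In the series list 93 of the 267 nhr genes had a region at them (34.8%), against 36.1% of all other protein-coding genes. The lower bound was 30 nhr genes (11.2%), against 13% of the others. A region inside the gene was found for 28 nhr genes (10.5%), against 9.62% of the others. In all, 174 nhr genes had no region at them, and the median number of regions at a gene was 0 in both sets. At series q-values under 1e-05, 19.9% of nhr genes had a region at them, a difference of -7.18 percentage points from the other genes, and under 1e-10 10.9% did, a difference of -4.2. These are counts over genes in one set of lists, given without a test.

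Set beside other genes, the family's share of regions at the gene differed between the lists and, within replicate 1, with the q-value limit. In the replicate 1 list 92 nhr genes had a region at them (34.5%), against 35.2% of the others, with a lower bound of 34 genes (12.7%), against 12.3%. That list runs to a q-value of 0.00999, and held to 0.001, near the limit of the other lists, it had 21.3% of nhr genes, a difference of -7.21 percentage points from the other genes. The replicate 2 list, the shortest, had 35 nhr genes (13.1%), against 17.1%, with a lower bound of 15 genes (5.62%), against 4.61%. Regions inside the gene were found for 33 nhr genes in replicate 1 (12.4%), against 9.21% of the others, and for 15 in replicate 2 (5.62%), against 3.81%. Of the 35 nhr genes in the replicate 2 list, 34 also had a region in both other lists, and the exception was nhr-258 (q-value 0.000582). Nearly all other genes of the replicate 2 list did so too, 3246 of 3376. Over the 3 lists, 105 nhr genes had a region in at least 1 list and 162 had none in any. The same count over the other genes is not given here, so these numbers are not read against them.

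The 119 distinct series regions at nhr genes were of ordinary width, and few were among the strongest. Their median width was 297 bp, against 312 bp for all series regions, and 6 were 800 bp or wider (5.04%, against 5.22%). A match in both replicates was found for 41 of them (34.5%), against 36.7% of all series regions. Of the 1000 strongest series regions, 9 lay at nhr genes, which is 7.56% of the 119 regions, whereas the 1000 make up 12.6% of the list. None of the 100 strongest did, but only 119 of all 7964 series regions lie at nhr genes, so this count says little. Genes with a region had a median smallest q-value of 5.56e-07 among nhr genes and 4.6e-09 among all others.

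The near-average share of the family was made of unlike parts. Chromosome V, which has few UNC-62 regions, carries 167 of the 267 nhr genes (62.5%), against 24.5% of the other genes. On V, 50 nhr genes had a region at them (29.9%), against 22.3% of the other genes there. Some of these 50 share a region with another nhr gene, so they are not independent of each other. Outside V, 43 of 100 nhr genes had a region at them (43.0%), against 40.6%. Both shares lie above those of the other genes, although the pooled share lies below, as V has the greater weight among nhr genes. In the replicate 2 list this order held outside V, with 25 of the 100 nhr genes against 19.7% of the others, and was turned round on V, with 5.99% of nhr genes against 9.36%. On the autosomes other than V, thus without X, 30 of 78 nhr genes had a series region at them (38.5%), against 40.5%. In replicate 2, 20.5% of these nhr genes did, against 19.2% of the others.

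**Figure D1:**
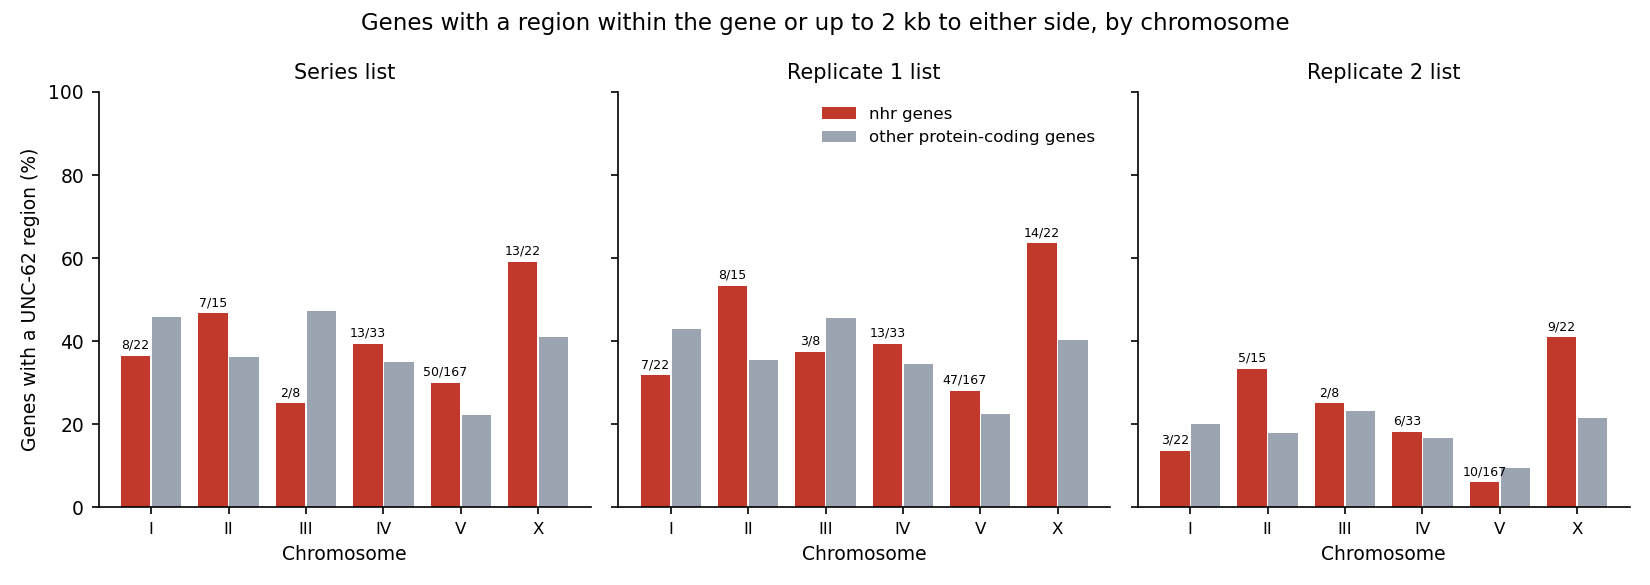
Percentage of genes with a UNC-62 region within the gene or up to 2 kb to either side (y axis) by chromosome (x axis), for nhr genes (red, with counts) and all other protein-coding genes (grey), in 1 panel per list. The X bars of nhr genes are the tallest in each panel, and on V the nhr bar is above the grey bar in the series and replicate 1 lists and below it in replicate 2.

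On chromosome V most nhr genes lie on the arms, taken as the outer 25% at each end. There, 28 of 113 nhr genes had a series region at them (24.8%), against 14.8% of the other arm genes. In the centre, 22 of 54 did (40.7%), against 28.8%. Few of these regions were inside the receptor gene itself: 7 of the 167 nhr genes on V held an internal region (4.19%), against 5.76% of the other V genes. In replicate 2, 5 of the 113 arm genes had a region at them (4.42%, against 5.0%).

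Chromosome X showed the highest share. Of its 22 nhr genes, 13 had a series region at them (59.1%), against 41% of the other X genes, and 9 of the 13 were in all 3 lists. Regions inside the gene were found in 8 of the 22 (36.4%), against 12.7%. The replicate lists gave 63.6% and 40.9% for regions at the gene in replicates 1 and 2, against 40.3% and 21.5% of the other X genes. With nhr-28 left out, a gene whose replicates differ from the rest, the series shares on X were 57.1% at the gene and 33.3% inside it. The nhr genes on X were longer, with a median of 4190.5 bp, against 2498 bp for the other X genes. Of X genes under 4 kb, 3 of 9 nhr genes had a series region at them (33.3%), against 34.5% of the others. At 4 kb and over, 10 of 13 did (76.9%), against 57.4%. The shares with a region inside were 22.2% against 5.53% under 4 kb and 46.2% against 30.5% at 4 kb and over.

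Shares were higher among genes of 4 kb and over than among shorter ones in every list, and a longer gene has a wider window by construction. Among genes under 4 kb, 59 of 213 nhr genes had a series region at them (27.7%), against 30.8% of the others. Among genes of 4 kb and over, 34 of 54 did (63.0%), against 55.4%, and 19 of the 54 held a region inside (35.2%), against 27.8%. Long genes outside V also differed. There, 17 of 37 nhr genes held an internal series region (45.9%), against 28.4% of other genes, with median lengths of 6585 bp for the nhr genes and 6352 bp for the others. The same share was 51.4% in replicate 1, against 26.5%, and 32.4% in replicate 2, against 12.8%; without nhr-28 it was 44.4% in the series list, 50.0% in replicate 1 and 30.6% in replicate 2. The class of long genes outside V was singled out after its values were seen. On V, internal regions in genes of 4 kb and over went the other way. There, 2 of 17 nhr genes held an internal series region (11.8%), against 24.7% of other genes. In replicate 1 the share on V was 17.6%, against 24.8%, and in replicate 2 none of these nhr genes held one. The part of gene length in these shares was not tested.

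Of the 11 nhr genes of 8 kb and over, 9 had a region at them in the series list, and the same number did in replicate 2 (81.8% in each, against 65.9% and 36.4% of other genes of this length). The 9 are nhr-1, nhr-21, nhr-34, nhr-40, nhr-41, nhr-46, nhr-48, nhr-66 and nhr-88. The exceptions were nhr-15 on V, with none in any list, and nhr-27 on X. The model of nhr-27 spans 102695 bp and encloses 11 other protein-coding genes. It had no series region and 1 weak region in replicate 1 (q-value 0.00556). Because of its length it weighs on density: regions inside nhr genes numbered 0.468 per 10 kb with it and 0.529 per 10 kb without it, against 0.479 per 10 kb inside other genes.

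**Figure D2:**
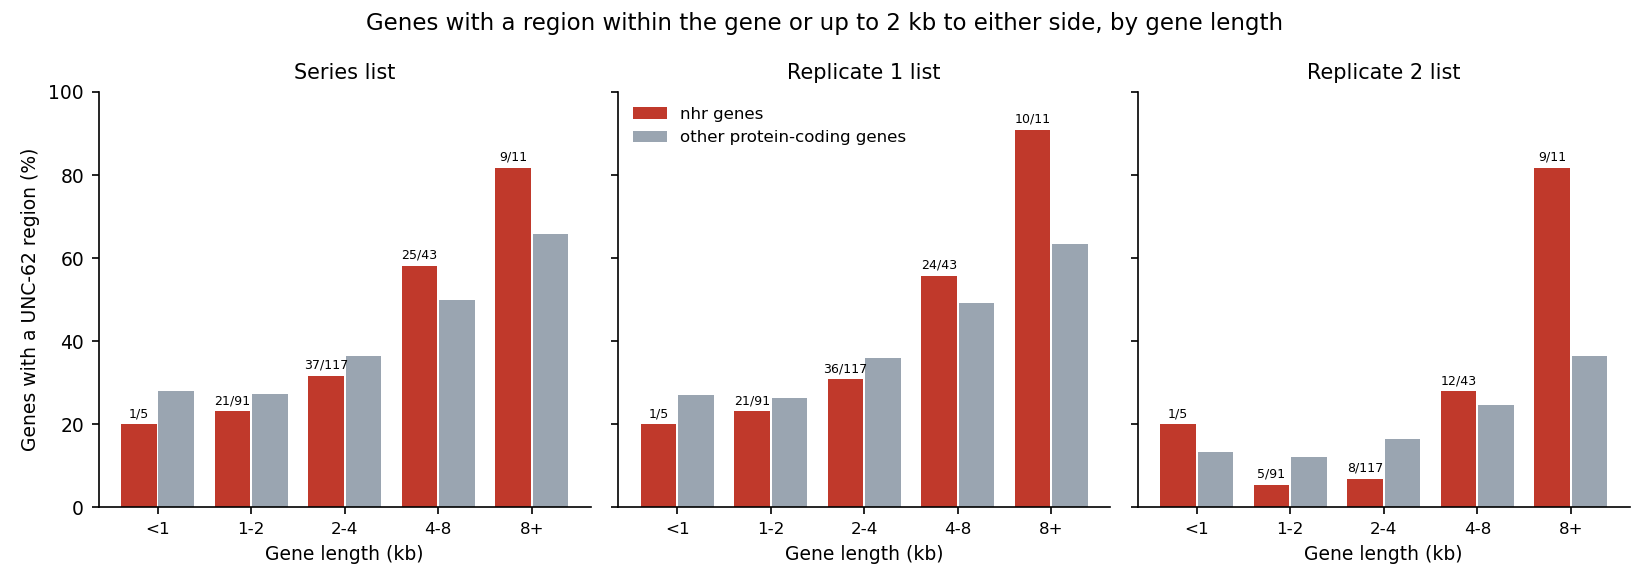
Percentage of genes with a UNC-62 region within the gene or up to 2 kb to either side (y axis) by gene length in kb (x axis), for nhr genes (red, with counts) and all other protein-coding genes (grey), in 1 panel per list. The red bar is below the grey one for genes of 1 to 4 kb and above it from 4 kb on, and in replicate 2 it reaches 81.8% for genes of 8 kb and over.

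The strongest UNC-62 region at any nhr gene lay inside nhr-3 on X. This region, X 14559179 to 14560755 (1577 bp, the widest at a member), had q-values of 1.1e-62 in the series list, 3.49e-39 in replicate 1 and 4.65e-23 in replicate 2, and ranked 144 in the series list. A second region at nhr-3, X 14557211 to 14558315, lay 741 bp from its low-coordinate end with q-values of 7.36e-43, 1.52e-25 and 4.54e-15 in the same order of lists, and also near ram-5. The other 2 lay beyond the other end, so that nhr-3 had regions inside and on both sides and meets the window on either strand.

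Next came 2 further genes of X and 1 each of II and V. At nhr-48, a relative of DAF-12 and of the vertebrate vitamin D receptor group, the region X 15707089 to 15707793 lay 772 bp outside the gene, with q-values of 7.86e-40 in the series list, 1.63e-29 in replicate 1 and 2.75e-11 in replicate 2. A weaker region inside nhr-48 (series q-value 7.74e-07) had a match in replicate 1 alone. At nhr-35, a close relative of HNF4, X 4531987 to 4532448 lay 474 bp outside the gene, with 3.7e-36, 1.35e-23 and 2.24e-14 in the same order. At nhr-119 on II the region II 2800795 to 2801278 lay 436 bp outside, with 1.29e-36, 9.23e-25 and 3.12e-13. Each of these 3 genes thus has 1 strong region in its flank, which is in no other protein-coding gene's window. The case of nhr-102 differs: V 15873691 to 15874156, 170 bp from the gene, had a series q-value of 8.67e-33, and the windows of the chemoreceptor genes str-56 and str-57 hold it too, with one of these nearer than nhr-102.

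Several receptors of fat and nutrient metabolism had regions in both replicates. The list of 9 such genes had 6 with a series region at them and 4 in replicate 2, and its median was 1 region per gene. Of all other genes, 36.1% had a series region and 17.1% a replicate 2 region, and their median was 0. These receptor genes are long, with a median of 4343 bp. Of other genes of 4 kb and over, 55.4% had a series region and 28.6% a replicate 2 region. At nhr-49, which controls fatty acid oxidation and desaturation, I 9869066 to 9869624 lay 373 bp outside the gene, with q-values of 9.93e-26 in the series list, 6.02e-16 in replicate 1 and 8.58e-09 in replicate 2. A second region inside it, I 9870756 to 9871203, was also found in both replicates (series q-value 6.67e-10). Thus nhr-49 had 2 replicated regions, both also in the window of the neighbour K10C3.5, which is the nearer gene to the outer one.

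A known partner of NHR-49, nhr-66, held 5 series regions, all of them inside its 10272 bp. The strongest, IV 8229400 to 8229971, had a series q-value of 2.13e-14 and a replicate 1 q-value of 1.01e-11 and had no match in replicate 2. The region matched in both replicates was IV 8235092 to 8235400, with q-values of 7.35e-08, 9.96e-05 and 0.000879 in the series list, replicate 1 and replicate 2. Of the other 3, 2 had a match in replicate 1 alone and 1 in neither replicate.

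At nhr-62, a receptor tied to longevity under dietary restriction, there were 4 series regions. The 2 strongest lay beyond its high-coordinate end, in the window of zig-1. The outer one, nearer to zig-1, I 9846118 to 9846749 had q-values of 2.69e-20, 5.29e-11 and 1.1e-06 in the series list, replicate 1 and replicate 2. At nhr-10, which acts in propionate breakdown, III 7116560 to 7116950 lay 1317 bp outside the gene, with 2.65e-18, 7.68e-13 and 1.45e-06. No other protein-coding gene shares the nhr-10 region. The other metabolic genes had weaker signals or none: nhr-13 and nhr-114 had 1 region each, matched in replicate 1 alone (series q-values 4.6e-05 and 0.000183), and nhr-68, nhr-76 and nhr-80 had none in any list. The nhr-114 region lies inside a neighbouring gene, Y45G5AM.9.

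Of the 10 genes with counterparts outside nematodes, 5 had a series region at them, 6 had a replicate 1 region and 2 a replicate 2 region. Beside nhr-48, nhr-41, a relative of insect DHR78, had an internal region in both replicates, IV 1388115 to 1388349, with q-values of 2.18e-08, 4.12e-05 and 0.000509 in the series list, replicate 1 and replicate 2. The strongest regions of nhr-91, related to vertebrate GCNF, of nhr-85, related to insect E75 and vertebrate Rev-Erb, and of nhr-8, which acts in sterol and xenobiotic responses, had matches in replicate 1 but not in replicate 2. Their series q-values were 6.87e-13 at nhr-91, 6.91e-06 at nhr-85 and 1.3e-08 at nhr-8, and a second nhr-91 region (0.000362) had no match in either replicate. The nhr-8 region lies nearer to one of the neighbours mrpl-1, emc-6 and mrps-24. No series region was found at nhr-6, the NR4A receptor needed for the spermatheca, at nhr-67, the tailless relative that acts in the anchor cell, or at nhr-111, nhr-236 and nhr-239. Of these 5, nhr-236 had a weak replicate 1 region (q-value 0.00933). Of all other genes, 36.1% had a series region, 35.2% a replicate 1 region and 17.1% a replicate 2 region, and the conserved genes are long, with a median of 5117.5 bp.

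Of the 3 genes closest to HNF4, 2 had series regions, where 36.1% of all other genes did. The median length of the 3 is 4856 bp, and of other genes of 4 kb and over 55.4% had a series region. Beside nhr-35, nhr-64 had 4 series regions, the strongest at I 3101678 to 3102085, 102 bp from the gene, with q-values of 8.24e-24 in the series list, 7.44e-14 in replicate 1 and 5.07e-09 in replicate 2. The other 3 at nhr-64 were weak, with series q-values between 3.04e-05 and 5.18e-05. No list had a region at nhr-69, which acts in insulin-like peptide secretion.

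At receptors reported in seam and epidermal cells, regions were weak or absent. Of 8 listed, 7 are protein-coding entries of the table (nhr-75 is not), and 1 of them, nhr-81, had a series region at it, I 12329541 to 12329679, with a q-value of 0.000901 and no match in either replicate. The region is shared with the neighbour nhr-165. At nhr-73, nhr-74, nhr-77 and nhr-82 no list had a region, and at nhr-72 and nhr-89 replicate 1 alone had one (q-values 0.007 and 0.00625). These genes are short, with a median of 1513 bp, and of genes of 1 to 2 kb 23.1% of nhr genes and 27.4% of other genes had a series region at them. With 7 genes, a share below these cannot be told from an equal one.

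Of 6 other receptors with known roles, 5 had series regions, where 36.1% of all other genes did and 55.4% of those of 4 kb and over; the median length of the 6 is 4479.5 bp. The strongest region each of nhr-57, a hypoxia-induced gene (V 4131448 to 4131911, series q-value 1.67e-12), nhr-31, which acts in the excretory cell (IV 8027330 to 8027707, 2.12e-10), and nhr-40, which acts in body wall muscle development (X 2595528 to 2595876, 2.24e-12), was matched in both replicates, while a second region of nhr-31 (0.000118) and of nhr-40 (4.25e-11) had a match in replicate 1 alone. The regions of nhr-2, a receptor of early embryos (the stronger at I 5820422 to 5820824, 6.36e-13), and nhr-86 (V 2066847 to 2067097, 9.69e-06) were matched in replicate 1 alone. The strongest regions of nhr-57, nhr-40 and nhr-86 also lie in the windows of phat-4, T03G6.7 and lbp-9, in that order. No region was found at nhr-60. The 5 nuclear receptor genes with other symbols, daf-12, fax-1, odr-7, sex-1 and unc-55, have a median length of 4093 bp. Each had a series region at it, but the region of sex-1 was the single one matched in both replicates.

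The other genes among the 20 strongest, all of which have regions in both replicate lists by the rule that chose them, were these. An internal region marked nhr-19 (II 9603314 to 9603705, series q-value 9.14e-27), nhr-17 (X 12664951 to 12665335, 3.79e-18) and nhr-46 (IV 5753921 to 5754402, 4.12e-14). The strongest region of nhr-34 lay outside the gene (IV 9677235 to 9677933, 1.34e-15), with a further replicated region inside. Regions 8 to 451 bp outside the gene marked nhr-1 (X 17528004 to 17528406, 1.55e-21), nhr-32 (X 13251248 to 13251778, 3.11e-19), nhr-256 (V 1743455 to 1743852, 1.04e-15) and nhr-47 (V 5505080 to 5505383, 1.04e-13). The regions given for nhr-17, nhr-1 and nhr-47 also lie in the windows of nlp-76, sup-10 and dnj-19, in that order. At nhr-70 the region (V 18614476 to 18614833, 5.03e-14) lay 1932 bp away, nearer to grdn-1. Of these 20 genes 7 are on X and 4 on V.

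Among the other members the signal was weaker. Of the 34 nhr genes in all 3 lists, those whose regions are not given above include nhr-14, nhr-21, nhr-58, nhr-61, nhr-88, nhr-172 and nhr-280, while nhr-139, nhr-140 and nhr-162 are described with shared regions at the end. The regions of the first 7 that both replicates matched had series q-values between 1.11e-11 at nhr-88 and 2.52e-08 at nhr-21. A further 47 nhr genes, some of them described above, had regions in the series and replicate 1 lists and none in replicate 2. Their smallest series q-values ran from 6.36e-13 to 0.000936. The 12 genes in the series list alone reached no lower than 2.53e-05, and the 11 in the replicate 1 list alone had replicate 1 q-values from 0.00233 to 0.0096. The replicate 1 list extends to a larger q-value than the other lists, 0.00999 against 0.000997 in the series list, and these 11 genes all lie in that added range. Incomplete overlap of the lists is general. Of genes with a series region, 36.6% of nhr genes and 45.6% of all others had a region in both replicate lists. Shares of other genes in the remaining combinations of lists are not given here.

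**Figure D3:**
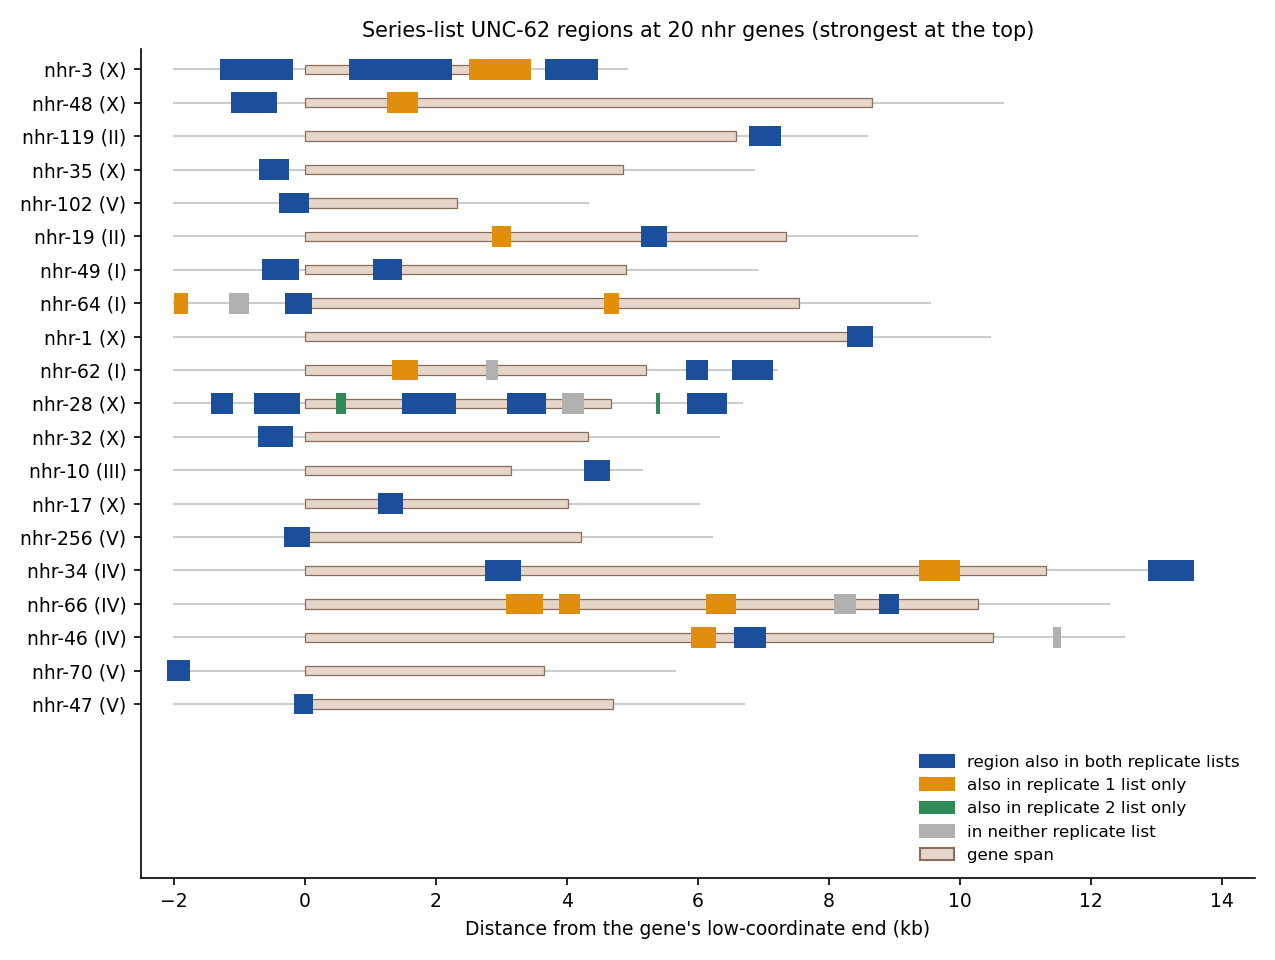
Position of series-list UNC-62 regions at the 20 nhr genes with the smallest series q-values among those with regions in both replicate lists, in kb from the low-coordinate end of the gene (x axis), 1 gene per row with its chromosome. Boxes are regions coloured by the replicate lists that match them, the pale bar is the gene and the thin line adds 2 kb to each side; direction of transcription is not shown, and the regions sit inside the gene in some rows and in a flank in others.

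The gene with the most regions, nhr-28 on X, stood apart from all other members. It had 8 series regions, 7 in replicate 1 and 8 in replicate 2, and its strongest, X 16354204 to 16354896, had q-values of 2.55e-19 in the series list, 0.000905 in replicate 1 and 4.62e-15 in replicate 2. Replicate 2, in which q-values are usually the larger ones, thus had the far smaller value. The same held for all 5 nhr-28 regions matched in both replicates. At the other nhr genes it held for 5 of 36 such regions (13.9%), and over the whole series list for 309 of 2923 (10.6%). Since the depth of each replicate is unknown, these counts say only which list has the smaller q-value.

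**Figure D4:**
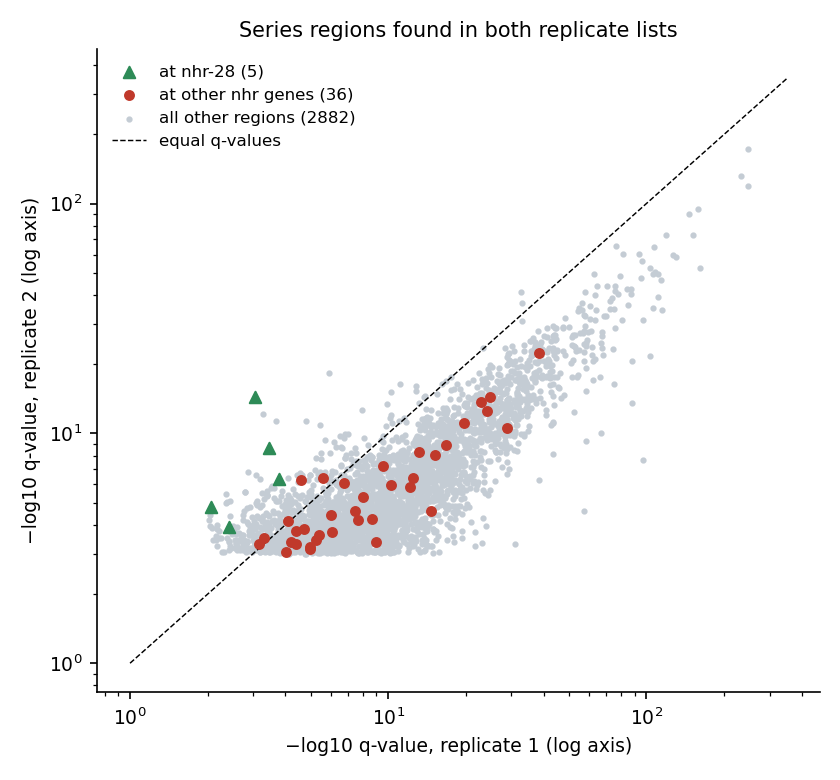
The −log10 q-value in replicate 2 (y axis) against replicate 1 (x axis), both on log axes, for series regions matched in both replicate lists: 5 at nhr-28 (green triangles), 36 at other nhr genes (red) and all others (grey). The green triangles lie above the dashed line of equal q-values, where the replicate 2 value is smaller, and most other points lie below it.

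The regions of nhr-28 belong to a stretch that runs beyond the gene. When regions less than 2 kb apart were joined into chains, the chain at nhr-28 ran from X 16343357 to 16380394, over 37.0 kb, and held 30 regions, the most of all 5449 chains of the series list. It overlaps taf-3, nhr-28, ace-1 and sur-7. Of its 30 regions 17 were matched in both replicates, 5 in replicate 2 alone, 8 in neither and 0 in replicate 1 alone, and replicate 2 had the smaller q-value in 11 of the 17. The chain with the next highest number, overlapping egl-27 on II, held 19 regions with 1 such case among 16. At the other nhr genes the longest chain was the one of nhr-3, with 6 regions over 9.23 kb, and 69 of the 89 chains at members were a single region, as were 3958 of all 5449 chains.

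**Figure D5:**
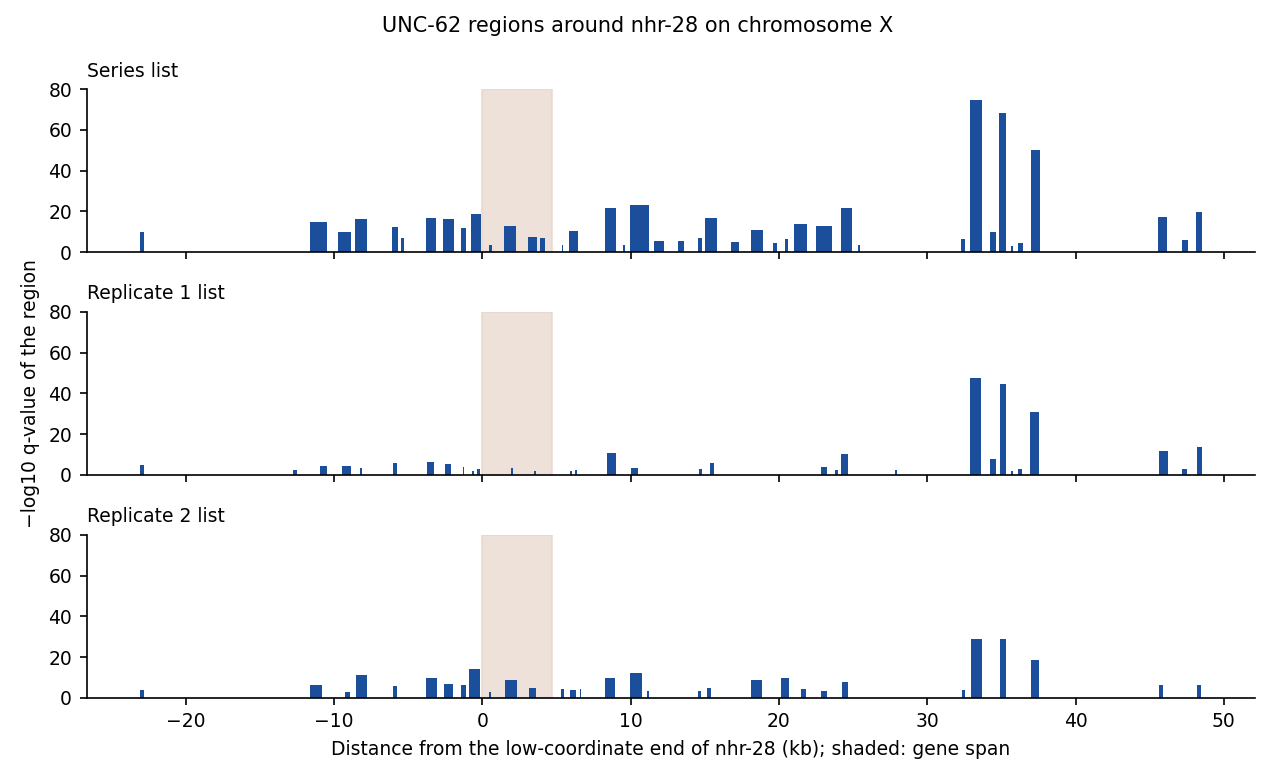
UNC-62 regions around nhr-28 in the 3 lists, as −log10 q-value (y axis, bar height) against distance in kb from the low-coordinate end of nhr-28 (x axis), with bar width equal to region width and the gene shaded. Regions of moderate height follow each other over 37.0 kb in the series and replicate 2 lists, with lower bars in replicate 1 at most of them, while the 3 tallest bars on the right are taller in replicate 1 than in replicate 2.

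Some regions were counted for more than 1 gene. Of the 119 distinct regions at nhr genes, 13 lay in the windows of 2 or more nhr genes, and 44 (37.0%) also in the window of another protein-coding gene. Such sharing was as frequent elsewhere. In the window of 1 gene only lay 52.9% of the 119 regions, against 53.8% of regions at other protein-coding genes only. The region V 6988132 to 6988408, inside nhr-140, was at nhr-139 and nhr-162 as well, so that 3 of the 34 genes found in all lists rest on 1 region (q-values 9.28e-08 in the series list, 0.000698 in replicate 1 and 0.000499 in replicate 2). Counting regions in the window of a single gene alone, 34 nhr genes (12.7%) had a region at them, and the share exceeded that of other genes by 1.73 percentage points.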

How the data were processed

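The authors deposited 1 region list per ChIP replicate and 1 for the series, called with PeakSeq on WormBase WS220 per the file headers and source column. For PeakSeq's version, the aligner, the filters and the making of the series list, the entry is: not given in the sources used here. The deposited value of each region was read as a q-value (corrected p-value), an assumption; its product with the rank number of the region showed 0 decreases down each list. Values reached 0.000997 in the series list, 0.00999 in replicate 1 and 0.000998 in replicate 2. Depth is unknown.

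Regions were assigned to genes by midpoint, using gene spans of the RefSeq table on WBcel235; WS220 positions were not converted. The table has no strand, so 2 kb was added to both sides. The planned assignment to the nearest 5′ end was not run, and upstream windows became both flanks. Regions of 2 lists matched at an overlap of 1 bp or more. Regions under 20 bp were kept. Genes were named by rule: the 20 members with the smallest series q-value among those with regions in both replicate lists, the 5 with the most regions, and fixed lists from general knowledge (conserved, HNF4-like, metabolic, seam and epidermal, other studied, other symbols). Members and lists were chosen with earlier results of these data known. Counting was tested on simulated regions. Python 3.11.15, numpy 2.4.6, pandas 2.3.3 and scipy 1.17.1 were used.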

Additional observations from a re-analysis of the deposited data

How the results depend on the processing

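The share of nhr genes with a region at them (34.8%) depended on the list and the window. With either replicate's list alone it ranged from 13.1 to 34.5%, and the difference from other genes (-1.28 percentage points) ranged from -4.02 to -0.78. The share was 12.7% with series regions matched in both replicates, 19.9% at q-values under 1e-05, 10.9% under 1e-10, 50.6% with a reach of 5 kb and 12.7% with regions in the window of 1 gene. Settings added after seeing the data gave 10.5% within the gene, 11.2% whichever the strand, 23% as the mean of both strands, 24.3% by nearest gene and 21.3% in replicate 1 under a q-value of 0.001. The difference widened to -7.18 points at q-values under 1e-05 and to -7.21 in replicate 1 under 0.001. It changed sign, to 1.12 with a reach of 1 kb, 1.73 with regions of 1 gene, 0.86 within the gene and 1.48 by nearest gene. By chromosome it was -9.49 on I, 10.5 on II, -22.15 on III, 4.42 on IV, 7.65 on V, 18.06 on X and 2.4 outside V. By gene length it was -7.88 under 1 kb (1 of 5 nhr genes), -4.36 at 1 to 2 kb, -4.79 at 2 to 4 kb, 8.21 at 4 to 8 kb and 15.89 at 8 kb and over. The causes were not tested. Shifting all genes by 200 bp gave shares of 34.5 and 35.6%, and of 32 named genes with a region at least 31 kept one. No paired analysis was possible because genes, not samples, were compared, and Input entered through no list.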

Other observations

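Further splits of the family were chosen after values were seen and have no test. Symbols from nhr-1 to nhr-100 had a series region at the gene in 47 of 93 cases (50.5%), and those from nhr-101 on in 46 of 174 (26.4%). In replicate 2 they were 26 of 93 and 9 of 174 (5.17%). The genes with low numbers are longer (median 3143 against 2060 bp), and 57 of the 93 lie outside chromosome V, against 43 of the 174. On V alone the series shares were 38.9% of 36 and 27.5% of 131, and outside V 57.9% of 57 and 23.3% of 43.

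Many nhr genes stand next to each other: 137 of the 267 had an nhr gene as the adjacent protein-coding gene, in 44 runs, 32 of them on V. Of these 137 genes, 41 had a series region at them (29.9%) and 8 a replicate 2 region (5.84%), whereas of the 130 without an nhr neighbour 52 and 27 (20.8%) did. Of all other protein-coding genes 36.1% had a series region and 17.1% a replicate 2 region. On V the series shares were 30.8% in runs and 28.3% outside them, against 22.3% of the other genes there. On the other chromosomes they were 26.7% and 50.0%, against 40.6%. Gene length was not compared between these groups. The longest run, 9 genes on V from nhr-185 to nhr-124, had no region in any list, while the 4 adjacent genes nhr-122, nhr-92, nhr-87 and nhr-146 on IV each had a series region at them and none in replicate 2. These 4 genes rest on 3 regions, since nhr-92 and nhr-87 share 1, and the nhr-146 region lies inside cpg-24 and had no match in either replicate.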
